A study of Mus musculus with 17 samples.

Results

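Clec9a, Xcr1, Wdfy4, Itgae, Batf3, Irf8, Cadm1, Id2 and Naaa are 9 genes that are commonly used to recognise type 1 conventional dendritic cells (cDC1s) or that are needed for their development or function. They were taken by name from the 31091 gene identifiers of a count table of bulk RNA sequencing in mouse, and all 9 were found and passed the filter on low counts in each fit reported below. The question was how each gene differed between cDC1s and type 2 conventional dendritic cells (cDC2s), and how it moved within each subset when the cells met the remains of dying tumor cells. The genes were chosen as cDC1 markers, so their direction between the subsets is a description of the sort more than a finding. Clec9a, Xcr1, Wdfy4 and Itgae were in addition named by the study from these same samples.

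The CD11c+ cells came from spleens of female C57BL/6JRj mice of 8 weeks that carried B16 tumors making FLT3 ligand, a growth factor that expands dendritic cells, and the spleens of several mice were pooled. They were cultured for 6 h with GM-CSF and medium of TC-1 cells, a mouse lung epithelial tumor line, and were then sorted into cDC1s (XCR1+ CD8α+) and cDC2s (SIRPα+ CD11b+). WT medium came from live TC-1 cells, BimS medium from TC-1-iBimS cells driven into apoptosis, and RIPK3 medium from TC-1-iRIPK3 cells driven into necroptosis. The inducer cumate was given to all of these cells, each inducible line is a single clone, and the media were not cleared of debris. There were 3 cDC1 samples with each medium, 3 cDC2 samples with WT medium, 3 with BimS medium and 2 with RIPK3 medium, 17 in all. No source used here says whether replicates of a group came from separate mice, so p-values measure the spread between these samples, which may be technical.

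cDC1s arise under the control of the transcription factors IRF8 and BATF3, which bind DNA together at sites that join an AP-1 element to an IRF element, and ID2, which blocks E proteins. At the surface they carry CLEC9A (DNGR-1), a receptor for the actin of ruptured cells, the chemokine receptor XCR1 and adhesion molecules. They are known for taking up dead cells and presenting their antigens to CD8+ T cells, for which WDFY4 is required.

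Promoters of 4 genes are shown first, since BATF3 and IRF8 are themselves among the genes described: those of Clec9a and Xcr1, the only ones of the 9 that held a motif searched for, and those of Irf8 and Itgae, the genes with the largest falls in cDC1s with debris. The 250 bases before the start site of the canonical GENCODE M39 transcript were read from GRCm39 and searched on both strands for 5 motifs: TGANTCA (AP-1), GAAA and GAAA with 2 bases between them (paired IRF), GGAA and GAAA with 2 bases between them (ETS-IRF), TTTC and TGA with 4 bases between them (AP-1-IRF, spaced) and GAAATGA (AP-1-IRF, adjacent). The matches in Clec9a and Xcr1 were to AP-1-IRF motifs. Clec9a, Xcr1 and Id2 rose in cDC1s with both kinds of debris, and Irf8, Itgae and Wdfy4 fell with both, and of these 6 genes Id2, Irf8, Itgae and Wdfy4 held none of the 5 motifs. All 4 windows are written 5′ to 3′ on the strand of the gene, with the matches in capitals.
Clec9a: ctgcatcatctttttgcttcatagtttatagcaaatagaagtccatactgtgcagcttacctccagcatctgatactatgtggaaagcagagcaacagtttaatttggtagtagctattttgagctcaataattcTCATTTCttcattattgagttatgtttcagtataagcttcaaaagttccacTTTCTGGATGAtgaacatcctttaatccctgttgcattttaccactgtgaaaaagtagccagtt
Xcr1: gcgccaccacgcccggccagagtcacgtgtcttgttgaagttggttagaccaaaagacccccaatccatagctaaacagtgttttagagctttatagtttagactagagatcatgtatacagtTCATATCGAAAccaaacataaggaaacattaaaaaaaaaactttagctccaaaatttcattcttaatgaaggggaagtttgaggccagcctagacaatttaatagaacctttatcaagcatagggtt
Irf8: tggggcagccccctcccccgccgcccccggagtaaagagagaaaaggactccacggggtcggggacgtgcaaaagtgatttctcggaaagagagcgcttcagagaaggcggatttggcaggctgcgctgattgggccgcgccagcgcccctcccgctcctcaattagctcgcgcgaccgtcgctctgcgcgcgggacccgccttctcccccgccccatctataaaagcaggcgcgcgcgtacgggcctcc
Itgae: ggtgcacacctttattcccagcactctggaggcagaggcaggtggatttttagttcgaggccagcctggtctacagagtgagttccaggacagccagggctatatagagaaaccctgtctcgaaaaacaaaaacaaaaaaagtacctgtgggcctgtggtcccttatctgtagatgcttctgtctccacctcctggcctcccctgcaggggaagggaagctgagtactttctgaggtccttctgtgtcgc

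The Clec9a window lies on the plus strand at chr6:129385575-129385824, and its matches TCATTTC and TTTCTGGATGA begin at positions -115 and -64 from the start site. The Xcr1 window lies on the minus strand at chr9:123691095-123691344, and its match TCATATCGAAA begins at -127. The windows of Irf8 (chr8:121462847-121463096) and Itgae (chr11:72981159-72981408) are on the plus strand. Of the 9 promoters, 2 held any of the 5 motifs, while 18.3% of 21603 promoters of protein-coding genes did. Either AP-1-IRF motif was found in 8.21% of them, the AP-1 motif in 6.15%, the paired IRF motif in 3.34% and the ETS-IRF motif in 2.56%. A match is a description of these letters and was not tested for binding or for a link with any change in level. The windows of Wdfy4, Batf3, Cadm1, Id2 and Naaa held no match either.

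All 9 genes were higher in cDC1s than in cDC2s with every medium, and no cDC2 sample reached the lowest cDC1 sample for any of them. The fitted difference was 42.1-fold for Cadm1, 46.0-fold for Clec9a, 96.9-fold for Itgae and 291-fold for Xcr1, while it was 8.61-fold for Naaa, 9.47-fold for Irf8 and 10.1-fold for Wdfy4, and only 1.79-fold for Id2 and 2.39-fold for Batf3. In the fit of the 17 samples, which took the medium into account, all 8 genes other than Xcr1 were called higher at an adjusted p under 0.05, against 30.4% of the 19082 genes tested. The samples of the subsets did not overlap for any of the 9, against 14.6% of all genes that were higher in cDC1s without overlap. The median log2 fold change of the 9 genes was 3.34, and that of all genes was 0.03. XCR1 protein set the sort gate, so the value of Xcr1 is given below without a test.

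**Figure D1:**
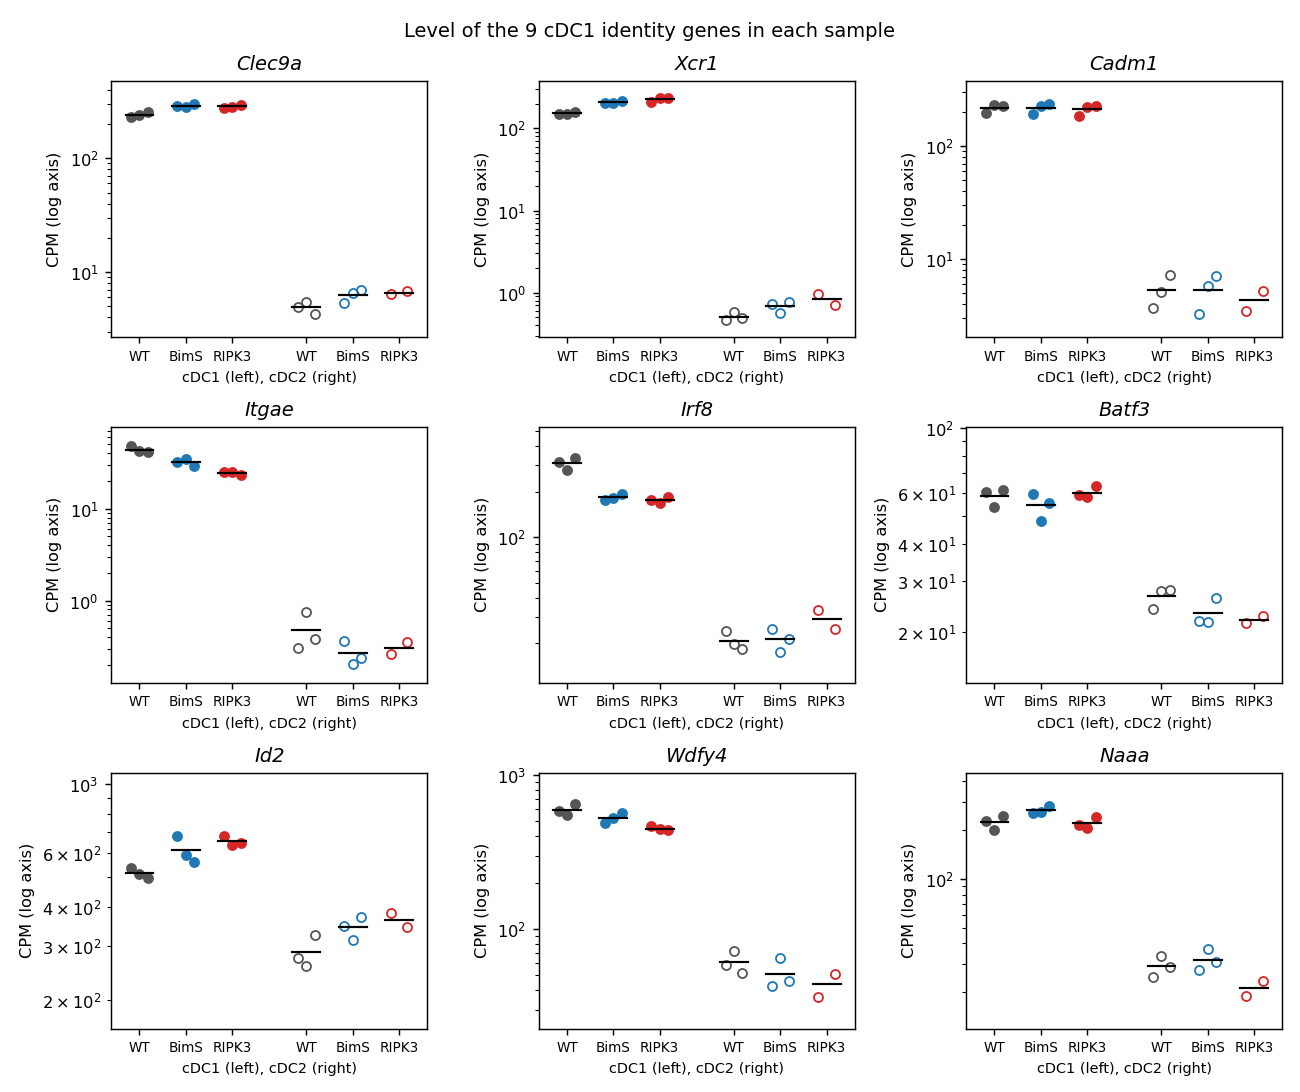
Depth-scaled counts (CPM, log axis) of each gene in each sample, by subset and medium; filled circles are cDC1 samples, open circles are cDC2 samples, and each line is the mean of a group of 3 samples (2 for cDC2s with RIPK3 medium). In cDC1s Irf8 sits at 279 to 334 CPM with WT medium and at 167 to 194 CPM with both kinds of debris, whereas Cadm1 and Batf3 overlap between media.

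Among the surface receptors, Clec9a (ENSMUSG00000046080, chromosome 6, 129385825 to 129401726) ranged from 229.9 to 297 CPM over the 9 cDC1 samples with a median of 279, where CPM are counts scaled to the library total after TMM normalization. Over the 8 cDC2 samples it ranged from 4.32 to 7.04 CPM with a median of 5.93. Across media the log2 fold change was 5.52 (SE 0.06, edgeR adjusted p = 2.3e-34). The low cDC2 values are uncertain, because 77.1% of the exon bases of Clec9a overlap Clec1a on the other strand, which averaged 3.64 to 4.28 CPM in the cDC2 groups and 1.05 to 1.16 CPM in the cDC1 groups, and the strand setting of the counting is not given in the sources used here.

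Xcr1 (ENSMUSG00000060509, chromosome 9, 123681380 to 123691094), the receptor for the chemokine XCL1, ranged from 148 to 236 CPM in cDC1s and from 0.462 to 0.970 CPM in cDC2s. These cDC2 values rest on 9 to 15 counts per sample. The log2 fold change was 8.18 (95% CI 8.04 to 8.33), the highest of the 9 genes. Of its exon bases, 24.1% overlap the antisense gene Gm57030, which averaged 2.31 CPM in cDC2s with WT medium, 6.28 CPM with BimS medium and 8.93 CPM with RIPK3 medium, so small values of Xcr1 in cDC2s cannot be assigned to it with certainty.

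Cadm1 (ENSMUSG00000032076, chromosome 9, 47441471 to 47773576), an adhesion molecule whose partner on activated T cells is CRTAM, was at 183 to 234 CPM in cDC1s. In cDC2s it was at 3.28 to 7.18 CPM (log2 fold change 5.40, SE 0.13, edgeR adjusted p = 3.67e-15). Itgae (ENSMUSG00000005947, chromosome 11, 72981409 to 73039917) codes for CD103, the integrin αE chain that binds E-cadherin. It was at 23.5 to 48.6 CPM in cDC1s and at 0.203 to 0.746 CPM in cDC2s, from 4 to 13 counts per cDC2 sample, and its log2 fold change was 6.60 (SE 0.11, edgeR adjusted p = 3.02e-29).

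Among the transcription factors, Irf8 (ENSMUSG00000041515, chromosome 8, 121463096 to 121485659) ranged from 167 to 334 CPM in cDC1s and from 17.6 to 33.2 CPM in cDC2s. Its log2 fold change across media was 3.24 (SE 0.17, edgeR adjusted p = 2.82e-10). Batf3 (ENSMUSG00000026630, chromosome 1, 190830044 to 190841142) was at 48.0 to 63.1 CPM in cDC1s and still at 21.4 to 27.9 CPM in cDC2s (log2 fold change 1.25, SE 0.06, edgeR adjusted p = 3.95e-18). Id2 (ENSMUSG00000020644, chromosome 12, 25143798 to 25147282) was at 498 to 682 CPM in cDC1s and at 259 to 384 CPM in cDC2s, the narrowest difference of the 9 (log2 fold change 0.84, SE 0.05, edgeR adjusted p = 7.15e-16). Antisense genes overlap 29.4% of the exon bases of Batf3 (Gm70128) and 22.8% and 13.4% of those of Id2 (Gm59395 and Gm36287), so without the strand setting reads from them cannot be told apart. Gm36287 averaged at most 0.413 CPM in any group, and no level of Gm70128 or Gm59395 was used here. The factors therefore separated the subsets to unequal degrees, with cDC2s holding 45.4% of the cDC1 mean of Batf3, 55.5% of that of Id2 and 6.72% of that of Irf8 with WT medium.

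Both remaining genes act inside the cell. Wdfy4 (ENSMUSG00000051506, chromosome 14, 32681504 to 32907465), a BEACH-domain protein of cross-presentation, was at 437 to 648 CPM in cDC1s and at 36.1 to 72.0 CPM in cDC2s (log2 fold change 3.34, SE 0.10, edgeR adjusted p = 5.01e-15). Naaa (ENSMUSG00000029413, chromosome 5, 92405517 to 92426085), a lysosomal amidase that cleaves N-acylethanolamines such as palmitoylethanolamide, was at 199.9 to 283 CPM in cDC1s and at 19.1 to 36.8 CPM in cDC2s (log2 fold change 3.11, SE 0.08, edgeR adjusted p = 1.49e-17).

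**Figure D2:**
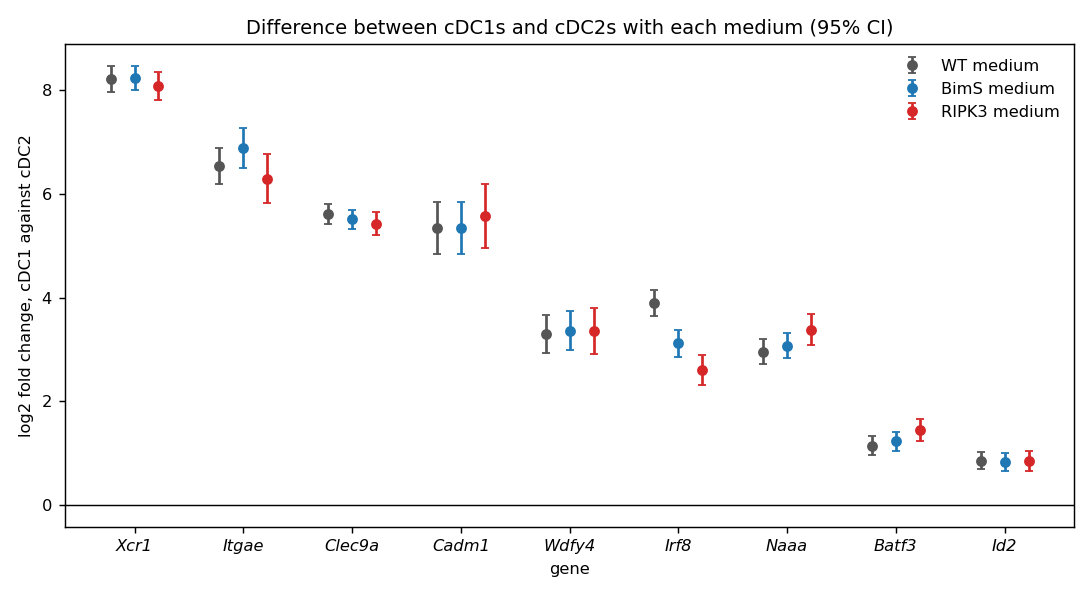
Log2 fold change between cDC1s and cDC2s (edgeR, vertical axis) for each gene with each medium; points are estimates and bars are 95% confidence intervals. Irf8 steps down from 3.89 with WT medium to 3.12 with BimS medium and 2.60 with RIPK3 medium, while Id2 stays between 0.83 and 0.85.

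With each medium alone, the 8 genes other than Xcr1 again all passed, against 22.5% of all genes called higher with WT medium, 23.5% with BimS medium and 21.4% with RIPK3 medium. The fold by which cDC1s exceeded cDC2s was steadiest for Id2 and Wdfy4. For Id2 the ratio of group means was 1.80 with WT medium, 1.77 with BimS medium and 1.80 with RIPK3 medium, and for Wdfy4 it was 9.81, 10.3 and 10.3. In the same order of media it was 2.20, 2.34 and 2.73 for Batf3 and 92.3, 119 and 80.6 for Itgae, whose cDC2 samples held 4 to 13 counts, and cDC2s held 12.9%, 11.9% and 9.62% of the cDC1 level of Naaa. For Irf8 the ratio fell from 14.9 with WT medium to 8.64 with BimS medium and 6.04 with RIPK3 medium, so that cDC2s held 6.72%, 11.6% and 16.6% of the cDC1 level. The test of this change is given with the interactions.

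Per length of exon, the order of the genes differed between the subsets. Lengths are the union of all annotated exons, which lowers the value of genes with long exons that are rarely used. In cDC1s with WT medium the order was Id2 at 148 ± 5.59 CPM per kb (SD, n = 3), Clec9a at 73.2 ± 3.50, Wdfy4 at 56.5 ± 4.61, Naaa at 42.0 ± 4.12, Batf3 at 36.6 ± 2.76, Xcr1 at 34.2 ± 1.47, Irf8 at 31.8 ± 2.85, Cadm1 at 13.6 ± 1.19 and Itgae at 7.07 ± 0.645 CPM per kb. The sample ranges of Naaa and Batf3, of Batf3 and Xcr1, and of Xcr1 and Irf8 overlapped, so these neighbours did not differ beyond their spread. In cDC2s with WT medium Id2 led at 82.2 ± 10.0 CPM per kb, followed by Batf3 at 16.6 ± 1.37, Wdfy4 at 5.76 ± 0.971, Naaa at 5.43 ± 0.796, Irf8 at 2.14 ± 0.302, Clec9a at 1.49 ± 0.173, Cadm1 at 0.335 ± 0.109, Xcr1 at 0.114 ± 0.0132 and Itgae at 0.0766 ± 0.0378 CPM per kb. There the ranges of Wdfy4 and Naaa, and of Xcr1 and Itgae, overlapped. With RIPK3 medium Xcr1 was the third gene in cDC1s at 50.9 ± 2.97 CPM per kb, above the range of Wdfy4, and Irf8 was at 18.1 ± 0.871, below the range of Batf3.

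**Figure D3:**
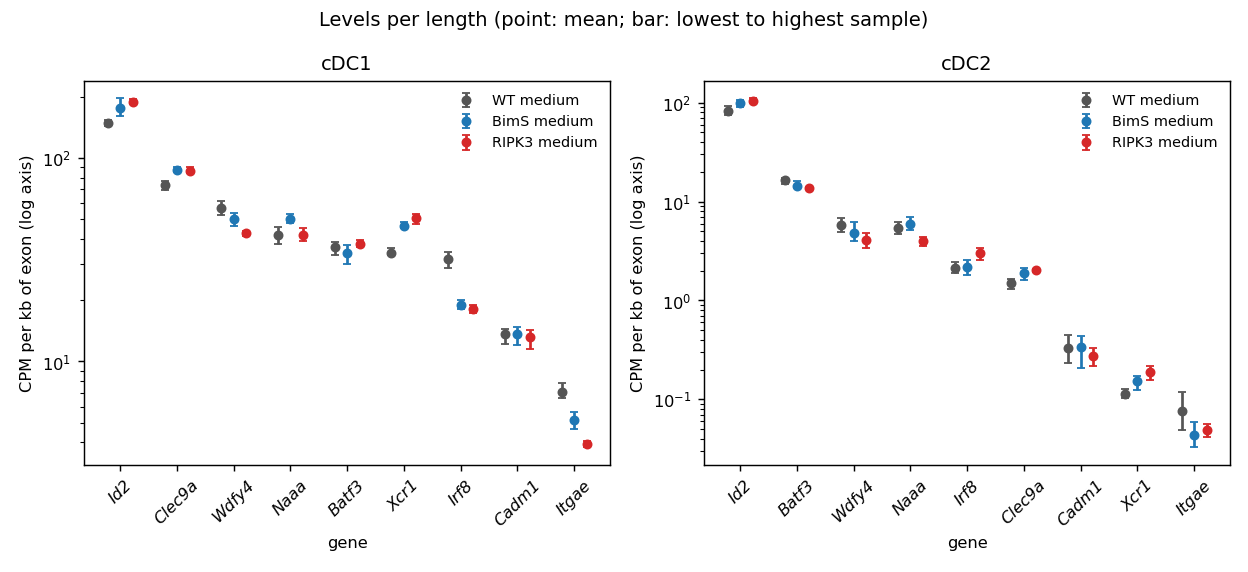
Mean level per length (CPM per kb of exon, log axis) of each gene in cDC1s (left) and cDC2s (right), with genes in the order of WT medium; bars run from the lowest to the highest sample of a group (3 samples, 2 for cDC2s with RIPK3 medium). Xcr1 rises from 34.2 to 50.9 CPM per kb in cDC1s between WT and RIPK3 medium, and Itgae falls from 7.07 to 3.95.

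The libraries were checked before media were compared. Counts on genes ranged from 16095159 to 21645289 per sample. Of the 10 cDC2 markers, 9 were called lower in cDC1s, against 29.4% of all genes. These include Sirpa (log2 fold change -6.88) and Itgam (-6.07), whose proteins SIRPα and CD11b set the sort gates, so that their difference is no independent check. The exception was Clec12a, which was higher in cDC1s by 3.85, and it made up most of the summed cDC2 markers there: the sum without it, left out after seeing the values, was 3.05 to 5.93 CPM in the cDC1 samples and 282 to 351 CPM in the cDC2 samples. Esam was the one cDC2 marker called higher in cDC1s with debris (log2 fold change 2.04 with BimS and 2.38 with RIPK3 medium). It rested on 3 to 8 counts per cDC1 sample with WT medium. In cDC2s Esam was also higher with debris, averaging 0.562 CPM with WT, 2.23 CPM with BimS and 1.99 CPM with RIPK3 medium. Summed B cell, T and NK cell, and epithelial tumor cell markers stayed at or under 2.68 CPM in every sample. The 6 plasmacytoid dendritic cell markers summed to 13.1 to 20.6 CPM in cDC1s and 2.52 to 4.07 CPM in cDC2s. Of these, 5 were tested between subsets and 4 in cDC1s alone. Between subsets 2 were called higher in cDC1s and 2 lower, beside 30.4% and 29.4% of all genes. The epithelial markers summed to 1.68 to 2.68 CPM in cDC1s and to 0.971 to 1.49 CPM in cDC2s, with Cldn4 at 0 counts in all cDC1 samples. Of these markers 4 passed the filter over all samples and 2 in cDC2s alone. The others passed through their cDC1 samples, so no test between subsets is given. The summed level of the 9 macrophage markers differed between media in cDC1s, from 8.80 to 11.6 CPM with WT medium to 4.58 to 4.85 CPM with BimS medium and 3.84 to 6.44 CPM with RIPK3 medium, with Fcgr1 lower by log2 fold changes of -1.03 and -2.12. In cDC1s Fcgr1 alone averaged 5.00 CPM with WT, 2.43 CPM with BimS and 1.15 CPM with RIPK3 medium. In cDC2s the 9 macrophage markers summed to 15.3 to 30.5 CPM. Of the 8 macrophage markers tested in cDC1s, 2 were called lower with BimS medium and 1 with RIPK3 medium, beside 5.89% and 8.19% of all genes. Their part in the changes described next was not tested. In bulk samples, fewer cells of a type and less RNA per cell cannot be told apart.

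Most of the 9 genes differed between debris and WT medium in cDC1s, in both directions. With BimS medium 7 of 9 genes passed the test against WT medium, 4 higher (Xcr1, Clec9a, Naaa, Id2) and 3 lower (Irf8, Itgae, Wdfy4), against 13.2% of 19513 genes in either direction, 7.31% higher and 5.89% lower. With RIPK3 medium 6 of 9 passed, 3 higher (Xcr1, Id2, Clec9a) and 3 lower (Itgae, Irf8, Wdfy4), against 16.5% of all genes, 8.34% higher and 8.19% lower. The median log2 fold change of the 9 genes was 0.01 with BimS medium and -0.01 with RIPK3 medium, and that of all genes was 0.00 and -0.01. Both comparisons share the 3 WT samples. Between RIPK3 and BimS medium 3 of 9 passed, all lower with RIPK3 medium (Itgae, Naaa, Wdfy4), against 4.15% of all genes in either direction and 2.21% lower. The samples did not overlap for 6 of 9 genes with BimS against WT medium (29.5% of all genes), for 6 of 9 with RIPK3 against WT (29.9%) and for 3 of 9 with RIPK3 against BimS (19.2%). Without BimS replicate 3 the share of all genes called between RIPK3 and BimS medium was 2.42%.

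**Figure D4:**
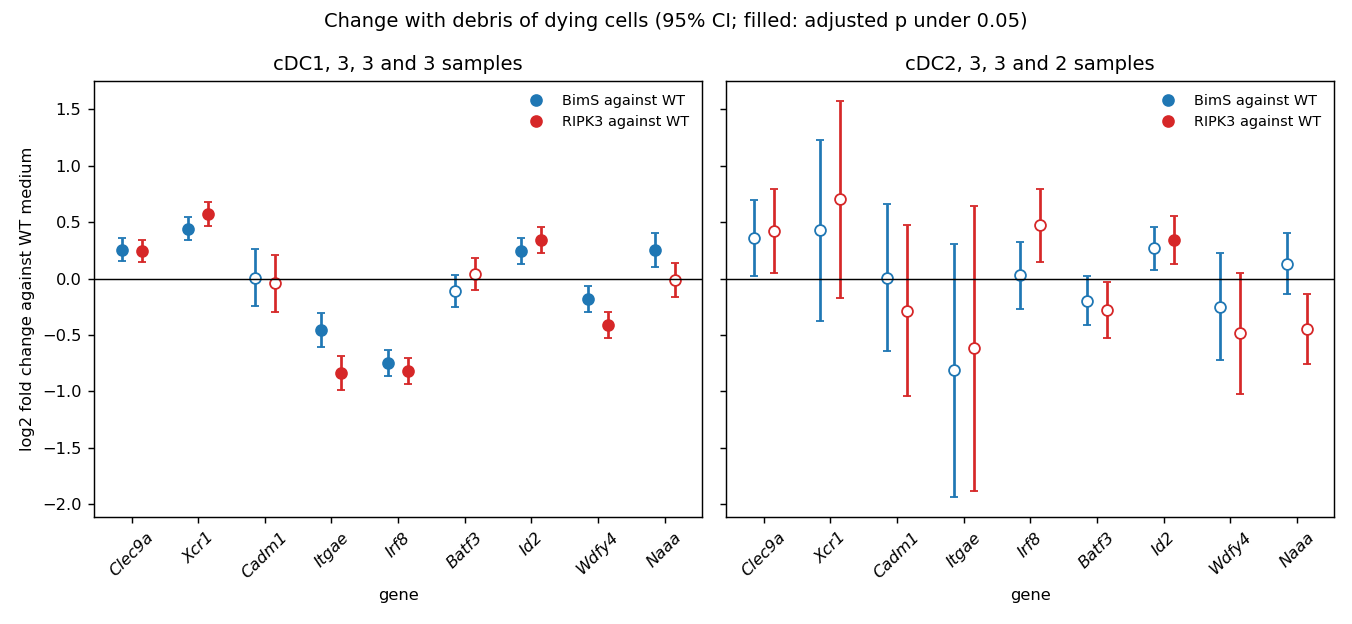
Log2 fold change against WT medium (edgeR, vertical axis) of each gene in cDC1s (left) and cDC2s (right) for BimS and RIPK3 medium; bars are 95% confidence intervals and filled points passed an adjusted p of 0.05. In cDC1s Irf8 and Itgae lie lowest, at -0.75 and -0.45 with BimS medium and at -0.82 and -0.84 with RIPK3 medium, and Xcr1 lies highest, at 0.44 and 0.57.

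Irf8 had the largest fall of the 9 genes with BimS medium. Its levels in cDC1s were 315, 279 and 334 CPM in WT replicates 1 to 3, 177, 182 and 194 CPM with BimS medium and 175, 167 and 184 CPM with RIPK3 medium. Every sample with debris was below every WT sample, and the samples with both kinds of debris overlapped. Against WT it differed by a log2 fold change of -0.75 (SE 0.06, edgeR adjusted p = 3.78e-12) for BimS and -0.82 (SE 0.06, edgeR adjusted p = 4.09e-13) for RIPK3 medium. Between both kinds of debris the difference was -0.07 (95% CI -0.18 to 0.05, edgeR adjusted p = 0.647).

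Itgae fell in steps. It was at 48.6, 42.3 and 41.1 CPM with WT medium, 32.1, 35.1 and 29.0 CPM with BimS medium and 24.9, 25.3 and 23.5 CPM with RIPK3 medium, and the groups did not overlap. Its log2 fold change against WT was -0.45 (SE 0.07, edgeR adjusted p = 1.59e-05) with BimS and -0.84 (SE 0.08, edgeR adjusted p = 6.92e-11) with RIPK3 medium. RIPK3 medium was lower than BimS medium by a log2 fold change of -0.38 (SE 0.08, edgeR adjusted p = 0.00191).

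Wdfy4 showed a like order with smaller steps: 588, 552 and 648 CPM with WT medium, 486, 526 and 565 CPM with BimS medium and 464, 446 and 437 CPM with RIPK3 medium. BimS replicate 3 lay within the WT range, and the RIPK3 samples were below all others. Its fitted change was -0.41 on the log2 scale (SE 0.06, edgeR adjusted p = 2.18e-06) for RIPK3 against WT, -0.18 (SE 0.06, edgeR adjusted p = 0.0276) for BimS against WT and -0.23 (SE 0.06, edgeR adjusted p = 0.0150) for RIPK3 against BimS. The BimS call was lost without cDC1 WT replicate 1 (adjusted p = 0.0582) or 3 (0.255), BimS replicate 1 (0.148) or 2 (0.0575) or RIPK3 replicate 3 (0.0821), by the same edgeR fit. The call between both kinds of debris was lost without BimS replicate 3 (adjusted p = 0.130) or RIPK3 replicate 2 (0.0584) or 3 (0.175).

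In the other direction, Xcr1 rose from 148, 149.6 and 159.8 CPM with WT medium to 202, 205 and 215 CPM with BimS medium and 211, 233 and 236 CPM with RIPK3 medium. No sample with debris overlapped WT. On the log2 scale Xcr1 rose by 0.44 (SE 0.05, edgeR adjusted p = 2.66e-08) with BimS and 0.57 (SE 0.05, edgeR adjusted p = 5.67e-11) with RIPK3 medium. XCR1 protein was part of the gate in all of these samples, and the part of the gate in this difference was not tested. RIPK3 medium was above BimS medium by 0.13 (SE 0.05, edgeR adjusted p = 0.183), which passed when the replicate number was added as a block (log2 fold change 0.13, adjusted p = 0.0357) and without RIPK3 replicate 1 (0.18, adjusted p = 0.0354).

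Clec9a was at 229.9, 240.5 and 253 CPM with WT medium, at 287, 279 and 297 CPM with BimS medium and at 276, 283 and 295 CPM with RIPK3 medium. All samples with debris were above all WT samples. The rise was 0.26 (SE 0.05, edgeR adjusted p = 0.000169) with BimS and 0.24 (SE 0.05, edgeR adjusted p = 0.000302) with RIPK3 medium, and the difference between both was -0.02 (95% CI -0.11 to 0.08, edgeR adjusted p = 0.933).

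Id2 rose as well. It was at 537, 513 and 498 CPM with WT medium, 682, 590.3 and 562 CPM with BimS medium and 680.0, 638 and 646 CPM with RIPK3 medium, again without overlap between WT and debris. The log2 fold change was 0.24 (SE 0.06, edgeR adjusted p = 0.00211) with BimS and 0.34 (SE 0.06, edgeR adjusted p = 2.5e-05) with RIPK3 medium. The difference of 0.10 between RIPK3 and BimS medium (95% CI -0.01 to 0.21) did not pass in the fit of all 9 samples (edgeR adjusted p = 0.417) and passed without BimS replicate 1 (0.18, adjusted p = 0.0332).

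Naaa differed between both kinds of debris. Its levels were 227, 199.9 and 243 CPM with WT medium, 256, 259 and 283 CPM with BimS medium and 215, 208 and 242 CPM with RIPK3 medium. The BimS samples were above all others, and WT and RIPK3 samples overlapped. BimS against WT gave 0.25 (SE 0.07, edgeR adjusted p = 0.0210), RIPK3 against WT -0.01 (95% CI -0.16 to 0.14, edgeR adjusted p = 0.952) and RIPK3 against BimS -0.26 (SE 0.07, edgeR adjusted p = 0.0403). The rise with BimS medium was lost without WT replicate 1 (adjusted p = 0.0533) or 2 (0.0604), BimS replicate 3 (0.0773) or RIPK3 replicate 1 (0.0596). The difference between both kinds of debris was lost without WT replicate 1 (adjusted p = 0.0568), any of BimS replicates 1 (0.0710), 2 (0.0741) and 3 (0.144), or RIPK3 replicate 1 (0.176) or 2 (0.132).

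Batf3 and Cadm1 did not pass in any comparison of media in cDC1s. Batf3 was at 60.5, 53.4 and 61.5 CPM with WT medium, 59.6, 48.0 and 55.2 CPM with BimS medium and 59.0, 58.1 and 63.1 CPM with RIPK3 medium, with overlapping groups. Its differences were -0.11 (95% CI -0.25 to 0.03) with BimS and 0.04 (95% CI -0.10 to 0.18) with RIPK3 medium against WT. Cadm1 was at 195, 230.3 and 224 CPM with WT medium, 192, 226 and 234 CPM with BimS medium and 183, 221 and 227 CPM with RIPK3 medium. In each medium replicate 1 had the lowest value of Cadm1. Its differences against WT were 0.01 (95% CI -0.24 to 0.26) with BimS and -0.04 (95% CI -0.30 to 0.21) with RIPK3 medium, and the direction of both flipped in some alternatives.

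For cDC2s the main fit of the 8 samples called 0 of 9 genes with BimS medium against WT, against 7.01% of 19239 genes. At an unadjusted p under 0.05 it had 2 genes, Clec9a and Id2, and DESeq2 called 0 as well. With RIPK3 medium against WT 1 of 9 passed, Id2, against 7.21% of all genes, and between RIPK3 and BimS medium 0 of 9, against 0.379%, with Irf8 and Naaa at an unadjusted p under 0.05 and 0 by DESeq2. When the replicate number, which paired the samples within a subset, entered as a block, the counts rose to 3, 4 and 4 of 9, while the genes called over the whole table rose to 21.3%, 21.4% and 14.3%. All 9 genes overlapped between BimS and WT samples, while 23% of all genes did not, and groups without overlap were found for 7 of 9 with RIPK3 against WT (34.1%) and for 2 of 9 with RIPK3 against BimS (26.8%). With 2 samples in the RIPK3 group, those comparisons have the least precision. The shares of all genes called also rested on single samples. For BimS against WT the share was 4.2% without WT replicate 2 and 4.8% or 4.72% without BimS replicate 1 or 2. For RIPK3 against WT it was 4.91% without WT replicate 2 and 3.52% or 3.34% without RIPK3 replicate 1 or 2. For RIPK3 against BimS it was 0.0642% without RIPK3 replicate 1 and 0 without RIPK3 replicate 2, 0.123% or 0.204% without BimS replicate 1 or 2, and 0.796%, 0.257% or 1.15% without WT replicate 1, 2 or 3.

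Id2 in cDC2s was at 274, 259 and 326 CPM with WT medium, 349, 313 and 373 CPM with BimS medium and 384 and 345 CPM with RIPK3 medium. The RIPK3 samples lay above all WT samples, and BimS replicate 2 lay within the WT range. The log2 fold change was 0.27 with BimS medium (SE 0.09, edgeR adjusted p = 0.0938; with the block 0.27, adjusted p = 1.4e-09) and 0.34 with RIPK3 medium (SE 0.10, edgeR adjusted p = 0.0487; with the block 0.42, adjusted p = 3.16e-16). The BimS difference also passed without WT replicate 3 (0.37, adjusted p = 0.00375). The RIPK3 call was lost without WT replicate 1 (adjusted p = 0.0909) or 2 (0.243), BimS replicate 1 (0.0698) or 2 (0.0542), or RIPK3 replicate 1 (0.413) or 2 (0.122), and in 4 of the 8 other settings tried.

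Irf8 in cDC2s was at 24.1, 19.9 and 18.4 CPM with WT medium, 24.9, 17.6 and 21.5 CPM with BimS medium and 33.2 and 25.0 CPM with RIPK3 medium. Both RIPK3 samples were above every other cDC2 sample. The log2 fold change of RIPK3 medium was 0.47 against WT (SE 0.15, edgeR adjusted p = 0.0823) and 0.44 against BimS (SE 0.15, edgeR adjusted p = 0.375), and both passed with the block (0.43, adjusted p = 1.57e-05 and 0.40, adjusted p = 0.000141). The difference from WT also passed without WT replicate 1 (0.59, adjusted p = 0.0224).

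Naaa and Wdfy4 had their lowest mean in cDC2s with RIPK3 medium. Naaa was at 24.9, 33.3 and 28.5 CPM with WT medium, 27.4, 36.8 and 30.5 CPM with BimS medium and 19.1 and 23.6 CPM with RIPK3 medium. Against WT its log2 fold change with RIPK3 medium was -0.45 (SE 0.15, edgeR adjusted p = 0.0847; with the block -0.47, adjusted p = 1.26e-06) and against BimS -0.58 (SE 0.15, edgeR adjusted p = 0.129; with the block -0.60, adjusted p = 4.79e-10). Without WT replicate 1 both passed (adjusted p = 0.0248 and 0.0472). Wdfy4 was at 58.3, 72.0 and 52.0 CPM with WT medium, 42.4, 64.9 and 46.0 CPM with BimS medium and 36.1 and 51.2 CPM with RIPK3 medium, and replicate 2 was the highest of each medium. Its log2 fold change was -0.25 with BimS (SE 0.21, edgeR adjusted p = 0.617; with the block -0.26, adjusted p = 4.54e-05), -0.49 with RIPK3 against WT (SE 0.23, edgeR adjusted p = 0.331; with the block -0.59, adjusted p = 3.04e-16) and -0.24 with RIPK3 against BimS (SE 0.23, edgeR adjusted p = 0.839; with the block -0.33, adjusted p = 5.41e-05).

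The block also moved Batf3 with BimS medium and Id2 between both kinds of debris past the threshold in cDC2s. Batf3 was at 24.0, 27.6 and 27.9 CPM with WT medium, 21.8, 21.7 and 26.1 CPM with BimS medium and 21.4 and 22.6 CPM with RIPK3 medium. With BimS medium its difference was -0.20 (SE 0.10, edgeR adjusted p = 0.346; with the block -0.20, adjusted p = 0.0394), and for Id2 RIPK3 medium exceeded BimS medium by 0.07 (SE 0.10, edgeR adjusted p = 0.890; with the block 0.15, adjusted p = 0.0204). Clec9a, Xcr1, Itgae and Cadm1 did not pass in cDC2s in either fit. Their intervals were wide there, with the RIPK3 difference from WT at 0.42 (95% CI 0.05 to 0.80) for Clec9a, 0.70 (-0.17 to 1.57) for Xcr1, -0.62 (-1.88 to 0.64) for Itgae and -0.28 (-1.05 to 0.48) for Cadm1.

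Whether the subsets responded differently was tested by the interaction, the medium effect in cDC1s minus that in cDC2s, over all 17 samples. Irf8 was the one gene of the 9 that passed. Its difference was -1.30 for RIPK3 against WT (SE 0.17, edgeR adjusted p = 0.000265), against 1.14% of all genes called, and -0.78 for BimS against WT (SE 0.17, edgeR adjusted p = 0.0254), against 0.87%. For RIPK3 against BimS it was -0.52 (SE 0.17, edgeR adjusted p = 0.774), where 0.0314% of genes were called and 0 of the 9. Irf8 alone had an unadjusted p under 0.05 there, and DESeq2 called 0 of 9. The share of all genes called fell to 0.571% for the RIPK3 interaction without cDC2 RIPK3 replicate 2, and for the BimS interaction to 0.479% without cDC1 WT replicate 1 and to 0.536% or 0.515% without cDC1 BimS replicate 1 or 3. For RIPK3 against BimS it ran from 0 to 0.0514% over the samples left out, the lowest without cDC2 RIPK3 replicate 2 and the highest without cDC2 WT replicate 3. The RIPK3 interaction passed in all 8 alternatives and without each sample in turn. The BimS interaction was lost without cDC1 WT replicate 1 (adjusted p = 0.0735), cDC2 WT replicate 2 (0.0861) or 3 (0.116), cDC1 BimS replicate 1 (0.0796) or 2 (0.0619), or cDC2 BimS replicate 1 (0.0595) or 3 (0.0773). For the other 8 genes no subset difference in response passed, which does not show that the subsets responded alike: the 95% interval for RIPK3 against WT was -0.25 to 0.24 for Id2 and -1.35 to 0.87 for Itgae. For that interaction Naaa (0.42, edgeR unadjusted p = 0.0251, adjusted p = 0.446) and Batf3 (0.31, unadjusted p = 0.0332, adjusted p = 0.498) had an unadjusted p under 0.05.

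Genes that work with the 9 were described from a fixed list of 15 partners. Xcl1, the ligand of XCR1, had 0 counts in every cDC1 sample and at most 0.0540 CPM (1 count) in cDC2s, and Crtam, the partner of CADM1, reached at most 0.452 CPM in any sample. Itgb7, whose product pairs with CD103, averaged 33.2 CPM in cDC1s with WT medium and did not pass with BimS (log2 fold change 0.06, SE 0.13) or RIPK3 medium (0.17, SE 0.13). Cdh1, which codes for the CD103 ligand E-cadherin, was lower in cDC1s than in cDC2s by a log2 fold change of -6.78 (SE 0.19, edgeR adjusted p = 6.06e-18), with 1 to 9 counts per cDC1 sample. Syk, the kinase downstream of CLEC9A, averaged 89.9 CPM with WT, 87.3 CPM with BimS and 67.4 CPM with RIPK3 medium in cDC1s and fell by 0.41 with RIPK3 medium on the log2 scale (SE 0.06, edgeR adjusted p = 1.14e-06).

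Among the DNA partners of BATF3 and IRF8, the JUN partners of BATF3 moved in both directions in cDC1s. Jun, an AP-1 partner of BATF3, rose from 36.7 ± 1.28 CPM (SD, n = 3) with WT medium to 45.9 ± 2.66 CPM with BimS and 61.3 ± 1.90 CPM with RIPK3 medium (log2 fold change 0.74, SE 0.06, edgeR adjusted p = 8.94e-12 for RIPK3). Jund fell by 0.29 with BimS medium and by 0.25 with RIPK3 medium on the log2 scale, while Junb rose with RIPK3 medium (0.15, edgeR adjusted p = 0.0249) and was at -0.09 with BimS medium (edgeR adjusted p = 0.216). Between RIPK3 and BimS medium Jun and Junb were higher with RIPK3 medium (0.42 and 0.24). Spi1 (PU.1), a partner of IRF8, stayed at 395 to 421 CPM in group means and did not pass. Irf4, the IRF of cDC2s, was at most 0.747 CPM in cDC1s, from 2 to 15 counts per sample. Its means there were 0.570 CPM with WT, 0.283 CPM with BimS and 0.283 CPM with RIPK3 medium. These lower means with debris did not pass in cDC1s (edgeR adjusted p = 0.214 and 0.192). In cDC2s Irf4 fell by 1.16 with BimS and by 1.52 with RIPK3 medium on the log2 scale (edgeR adjusted p = 8.71e-07 and 2.42e-07). Of the E proteins that ID2 restrains, Tcf4 fell in cDC1s by 0.23 with BimS medium and by 0.23 with RIPK3 medium (edgeR adjusted p = 0.0485 and 0.0487), Tcf3 fell by 0.23 with RIPK3 medium (edgeR adjusted p = 0.00407) and Tcf12 rose by 0.16 with RIPK3 medium (edgeR adjusted p = 0.0495). Asah1, the lysosomal ceramidase related to NAAA, fell by 0.38 with BimS and by 0.45 with RIPK3 medium. Over the list, 1 of 14 tested partners rose and 3 fell with BimS medium in cDC1s, and 3 rose and 5 fell with RIPK3 medium. Of all genes, 7.31% rose and 5.89% fell with BimS medium, and 8.34% rose and 8.19% fell with RIPK3 medium. The median log2 fold change of the partners was -0.19 and -0.21, against 0.00 and -0.01 for all genes.

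Other genes of the cDC1 program changed in both directions with debris. Of 18 further cDC1 genes, Cd207 and Tlr12 passed the filter through their cDC1 samples alone, with at most 1 and 2 counts in any cDC2 sample, and are left out of the count between subsets. Cd207 was at 2.07 to 5.75 CPM in cDC1s. The other 16 were called higher in cDC1s than in cDC2s, against 30.4% of all genes, but the list was chosen as cDC1 genes and holds Cd8a, whose protein is part of the gate. Gcsam (log2 fold change 7.78) and Gpr33 (6.46) rested on 0 to 12 and 1 to 9 counts per cDC2 sample. Of all 18, 2 rose and 5 fell with BimS medium in cDC1s, and 2 rose and 9 fell with RIPK3 medium, beside 7.31% of all genes higher and 5.89% lower with BimS and 8.34% higher and 8.19% lower with RIPK3 medium. Their median log2 fold change was -0.06 and -0.23, against 0.00 and -0.01 for all genes. The largest falls were in Snx22, from 27.0 to 13.2 CPM with BimS medium (log2 fold change -1.04, SE 0.11, edgeR adjusted p = 6.68e-08), and Gcsam, from 110.9 to 55.8 CPM (-0.99, SE 0.07, edgeR adjusted p = 6.55e-13). Both were also lower with RIPK3 medium (-0.97 and -0.93). Tlr3, a sensor of double-stranded RNA, rose with BimS medium (0.62, SE 0.19, edgeR adjusted p = 0.0273) from 2.40 to 3.71 CPM. With RIPK3 medium Tlr3 averaged 3.50 CPM. Tlr12, which together with TLR11 recognises profilin, fell with RIPK3 medium (-0.84, SE 0.29, edgeR adjusted p = 0.0423). Its means in cDC1s were 1.896 CPM with WT, 1.253 CPM with BimS and 1.055 CPM with RIPK3 medium. Between RIPK3 and BimS medium the 3 largest were Cd8a (0.61), Septin3 (-0.45) and Ifi205 (-0.39).

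Regulators of dendritic cell development also changed in both directions in cDC1s. Of 16 listed, 8 fell and 1 rose with BimS medium, and 6 fell and 1 rose with RIPK3 medium, against the same shares of all genes (5.89% and 7.31% with BimS, 8.19% and 8.34% with RIPK3 medium). The median log2 fold change of the list was -0.26 and -0.20, against 0.00 and -0.01 for all genes. The gene that rose was Zeb2, a repressor that opposes the cDC1 fate, from 7.66 ± 0.862 CPM (SD, n = 3) with WT medium to 26.8 ± 1.75 CPM with BimS medium (1.80, SE 0.10, edgeR adjusted p = 1.44e-15) and 19.3 ± 2.88 CPM with RIPK3 medium (1.34, SE 0.11, edgeR adjusted p = 5.76e-12). In cDC2s Zeb2 averaged 173 CPM with WT medium, and across media it was lower in cDC1s by -3.62, beside Klf4 at -2.30. Batf2 was at 0.204 to 0.978 CPM in cDC1s and had 0 to 3 counts per cDC2 sample. It passed the filter through the cDC1 samples, so no test is given. Bcl6, a repressor expressed in cDC1s, fell by 0.55 with BimS medium, Cbfa2t3, which codes for ETO2, fell by 0.49 with BimS and by 0.91 with RIPK3 medium, and Mycl, a MYC family member of dendritic cells, fell by 0.67 with RIPK3 medium. Group means of Bcl6 in cDC1s were 138.3, 94.8 and 93.1 CPM with WT, BimS and RIPK3 medium. Those of Mycl were 78.0, 61.6 and 49.0 CPM in the same order. Between RIPK3 and BimS medium Zeb2, Cbfa2t3 and Mycl were all lower with RIPK3 medium, by -0.47, -0.42 and -0.33.

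Among the cross-presentation genes, Cybb, a NADPH oxidase subunit, was lower in cDC1s than in cDC2s (-4.51), and Mpeg1 and Apol7c were higher (4.01 and 3.82). Of 12 tested, 1 rose and 1 fell with BimS medium in cDC1s (Mpeg1, which codes for the pore-forming protein perforin-2, at 0.16 and the peptide transporter gene Tap1 at -0.18), and 1 rose and 3 fell with RIPK3 medium, with Lnpep at -0.38, Tap1 at -0.19 and Sec22b at 0.18. That is 2 of 12 and 4 of 12 called in either direction, beside 13.2% and 16.5% of all genes, with a median log2 fold change of -0.01 and -0.07. Between RIPK3 and BimS medium Mpeg1 was lower (-0.15). Of 13 maturation genes, Fscn1, Socs2 and Cd80 differed most between the subsets, all lower in cDC1s (-3.55, -1.98 and -1.68). Of the 13, 1 rose and 6 fell with BimS medium, and 1 rose and 5 fell with RIPK3 medium, where 7.31% and 8.34% of all genes rose and 5.89% and 8.19% fell. The median of the 13 was -0.14 and -0.10. Ccr7, the receptor that guides dendritic cells to lymph nodes, fell by 0.56 and by 0.68, Cd83 and Cd80 fell by 0.38 and by 0.30 with BimS medium, the chemokine gene Ccl22 fell by 1.00 with RIPK3 medium, and Cd274 (PD-L1) rose by 0.36 with RIPK3 medium, all on the log2 scale. In cDC1s Cd83 averaged 1917 CPM with WT, 1476 CPM with BimS and 1545 CPM with RIPK3 medium. Cd80 averaged 265.1, 214.5 and 212.8 CPM in the same order, Ccl22 157.1, 106.8 and 78.4 CPM, and Cd274 893.8, 1083 and 1148 CPM. Between RIPK3 and BimS medium 0 of the 13 were called, beside 4.15% of all genes. Relb belongs to both the maturation list and the list of regulators.

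Over the 9 cDC1 samples the levels of the genes were compared with each other as a description, since these samples share 3 media and 3 replicate numbers. Pearson's r of log2 CPM was 0.944 between Clec9a and Xcr1, 0.856 between Itgae and Irf8, and -0.925 between Xcr1 and Irf8. For Batf3 the r with the others ran from -0.369 to 0.188, and for Cadm1 from -0.492 to 0.216. The genes most like each of the 9 were then sought among 7839 genes whose log2 CPM averaged 3 or more, of which 3 are named for each gene, or 2 for Irf8 and Cadm1. For Irf8 they were Lmo2 and Mapk14 (r 0.984 to 0.985), and for Xcr1 Pak1ip1, St6gal1 and Tank (r 0.988 to 0.993). For Clec9a they were Trim39, Zfp276 and Gm46224 (r 0.98 to 0.985), for Itgae Msrb3, Cdh17 and Mrtfa (r 0.977 to 0.989), for Wdfy4 Rasgrp4, Plekhm3 and Tlr11 (r 0.967 to 0.974) and for Id2 Atg16l2, Hsf2 and Btg1 (r 0.969 to 0.978). Likeness was lower for Naaa, with Exosc10, Cpsf3 and Ppp2r1a (r 0.937 to 0.961), for Cadm1, with Psat1 and Mms22l (r 0.944 to 0.954), and for Batf3, with Stx8, Sh3glb1 and Nelfe (r 0.918 to 0.961).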

How the data were processed

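RNA was polyadenylated RNA of sorted cells in 17 samples, sequenced as paired-end reads. The deposited counts per gene are those the authors made with SeqPurge, STAR 2.7.10a on GRCm39 with Ensembl gene models and gensum, without normalization. The deposited log2 values are log2(count scaled to a total of 10 M, plus 1), made by the authors from the same counts, and were used in 1 alternative alone. Lines without a gene identifier (0.0258% to 0.0366% of counts) were left out, and 30854 of 31091 identifiers matched GENCODE M39.

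Tests used edgeR 4.0.16 (R 4.3.3), quasi-likelihood, robust, TMM, on the genes that had a count in 50% or more of the fitted samples, with Benjamini-Hochberg adjustment over all genes tested and a threshold of 0.05. The study's methods name limma, which was run here as an alternative, since the values are counts. cDC1s (9 samples) and cDC2s (8 samples) were fitted apart for media, and together for subsets and interactions. CPM are counts scaled to the library total after TMM over all samples. Fold changes and intervals (95%) are from edgeR. The replicate pairs of a group differed beyond sampling noise, so none was merged. Reads carry no molecular identifiers, so counting limits cover counting error alone.

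Within a subset 16 of 16 pairs of samples with the same replicate number correlated above 0.1 after removal of group means (median 0.355), against 4 of 32 with other numbers, so the numbers were taken to pair samples there. Across subsets this held for 14 of 16 such pairs with different media (median 0.219; 3 of 32 with other numbers) and for 5 of 8 with the same medium, so subset and interaction fits were also run with the block. This rests on the data, since the labels name no shared origin.

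The 9 genes, the 12 gene lists and the motifs were chosen with earlier results of these data known. All 9 were named throughout; from each functional list the 3 genes with the largest called change, and partners of the 9, were named. Clec12a, Sirpa, Itgam, Esam, Cldn4 and Fcgr1 were named after seeing their values. The alternatives were DESeq2 1.42.0, RLE size factors, filterByExpr, no filter, limma 3.58.1 on log2(count + 1) with a pseudocount of 1, on log2 CPM and on the deposited values, the replicate block, and leaving out each sample. On simulated counts with 200 changed genes of 2-fold, 200 were recovered for cDC1s against cDC2s, 200 for BimS against WT in cDC1s, 199 in cDC2s and 186 for the BimS interaction, with 3.85%, 4.76%, 12.3% and 3.63% false calls. The changed genes were drawn among genes with higher mean counts alone, so recovery at low counts or of smaller changes was not tested. Likeness used log2 CPM with a prior count of 2. Plots were made with matplotlib. A few genes that the naming rule would give are not reported here.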

Additional observations from a re-analysis of the deposited data

Results flagged for a closer look

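Irf8 stood out because its response to debris differed between the subsets in the interaction test. The cDC1 effect minus the cDC2 effect was -1.30 on the log2 scale for RIPK3 against WT medium and -0.78 for BimS against WT medium (edgeR adjusted p = 0.000265 and 0.0254). In cDC1s the level was lower in 3 of 3 same-numbered pairs with each kind of debris, whereas in cDC2s it was higher in 2 of 2 pairs with RIPK3 medium and in 2 of 3 pairs with BimS medium. The summed macrophage markers were lower with debris in cDC1s, at 3.84 to 6.44 CPM against 8.80 to 11.6 CPM with WT medium. Within that sum Fcgr1 alone averaged 5.00 CPM with WT, 2.43 CPM with BimS and 1.15 CPM with RIPK3 medium. The part of these markers in the Irf8 difference was not tested. Groups of 3 samples or fewer were not searched for a single sample that stands apart.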

How the results depend on the processing

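Fold changes of the 9 genes were recomputed over the alternatives, with the interactions of the genes other than Irf8 counted apart. Of 1863 values, 1755 kept their direction and their side of the threshold. Of the rest, 45 lost the call, 28 gained one and 35 changed sign, none of these 35 with a call in either fit. The interactions counted apart were 600 values, of which 1 was called, and their changes of sign are not given here. The calls between subsets of the 8 genes other than Xcr1 were kept in all alternatives run, as were the 6 calls for RIPK3 against WT medium in cDC1s without each sample.
By setting, the count of genes called moved as follows, and the cause was not tested. With no filter on low counts it was 2 for the interaction of RIPK3 against WT, where Naaa was added (0.44, adjusted p = 0.0254), 1 for that of RIPK3 against BimS (Irf8), and in cDC2s 1 for BimS against WT, 4 for RIPK3 against WT and 2 for RIPK3 against BimS. With limma on log2(count + 1) it was 3 for BimS against WT in cDC1s, and 2 for RIPK3 against WT and 1 for RIPK3 against BimS in cDC2s. There Clec9a (adjusted p = 0.207), Wdfy4 (0.202), Id2 (0.244) and Naaa (0.217) lost the BimS call in cDC1s, and Clec9a (0.501) and Id2 (0.118) the RIPK3 call. Wdfy4 with BimS medium was also lost with DESeq2 (adjusted p = 0.0525), and Naaa with the deposited values (0.117). In cDC1s with RIPK3 against BimS medium, Wdfy4 was lost on log2(count + 1) (0.0685) and Naaa with the deposited values (0.051). In cDC2s with RIPK3 against WT medium Id2 was lost on log2(count + 1) (0.17, adjusted p = 0.558), where Wdfy4 and Naaa were called instead, with the deposited values (0.24, adjusted p = 0.192), where Naaa was, with filterByExpr (0.0525) and with log2 CPM (0.0595). With filterByExpr Itgae was not tested in cDC2s. With filterByExpr and with limma on log2 CPM it was 0 for RIPK3 against WT in cDC2s. With the replicate block it was in cDC2s 3 for BimS against WT and 4 for each comparison of RIPK3 medium, and 4 for RIPK3 against BimS in cDC1s, and no other call changed there.
Leaving out 1 sample at a time gave 0 to 1 genes for the BimS interaction, 5 to 7 for BimS against WT and 1 to 3 for RIPK3 against BimS in cDC1s, and in cDC2s 0 to 1 for BimS against WT, 0 to 2 for RIPK3 against WT and 0 to 1 between both kinds of debris. Where this left 1 cDC2 sample with RIPK3 medium, it was taken to vary like the other groups.
Signs changed with limma on log2(count + 1) for Cadm1 with BimS (-0.030) and Batf3 with RIPK3 medium (-0.079) in cDC1s, and in cDC2s for Irf8 (-0.041) and Cadm1 (-0.085) with BimS medium and for Clec9a (-0.031) and Id2 (-0.033) between RIPK3 and BimS. They changed with the deposited values for Cadm1 (-0.060) and Batf3 (-0.041) in cDC1s and Irf8 (-0.067) and Cadm1 (-0.11) in cDC2s in the same comparisons, and with log2 CPM for Cadm1 in cDC2s with BimS medium (-0.015). Without 1 sample the ranges that crossed 0 in cDC1s were -0.062 to 0.087 for Cadm1 with BimS medium, -0.023 to 0.076 for Batf3, -0.11 to 0.046 for Cadm1 and -0.086 to 0.054 for Naaa with RIPK3 medium, and -0.040 to 0.0097 for Clec9a and -0.13 to 0.042 for Cadm1 between RIPK3 and BimS. In cDC2s they were -0.096 to 0.15 for Irf8 and -0.22 to 0.28 for Cadm1 with BimS medium, and between RIPK3 and BimS -0.036 to 0.14 for Clec9a, -0.13 to 0.0046 for Batf3, -0.0049 to 0.14 for Id2 and -0.050 to 0.46 for Itgae.
Over all genes, the block raised the genes called in cDC2s from 1349 to 4103, from 1387 to 4126 and from 73 to 2755, and in cDC1s for RIPK3 against BimS from 810 to 1730. For the interactions it raised them from 166 to 443 for BimS against WT and from 217 to 449 for RIPK3 against WT. For the interaction of RIPK3 against BimS the count went from 6 to 27. On log2(count + 1), which is not scaled to depth, the median of all genes shifted by -0.12 for RIPK3 against WT in cDC1s and by -0.17 in cDC2s. Depth limits Xcr1 and Itgae in cDC2s, with 4 to 15 counts per sample.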
